A study of Bos taurus with 6 samples.

Results

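CLCN5 encodes an endosomal exchanger of chloride and protons that is best known from the kidney, where its loss causes Dent disease. In mammals its introns on the X chromosome carry a cluster of related miRNA hairpins, among them those of miR-188, miR-362, miR-500, miR-501, miR-502, miR-532 and miR-660. Such hairpins are cut from a host transcript, and 1 or both arms of each are loaded into Argonaute as mature miRNAs that repress mRNAs through their seed. Because they can share a primary transcript, it was asked whether the miRNAs of this cluster differed together with bta-miR-500 between extracellular vesicles (EVs) of heat-stressed and control cells. The members are the miRNA identifiers whose number belongs to miR-188, miR-362, miR-500, miR-501, miR-502, miR-532 or miR-660, whatever the letter or arm. They were 8 of the 512 miRNAs listed, namely bta-miR-188, bta-miR-362-3p, bta-miR-362-5p, bta-miR-500, bta-miR-502a, bta-miR-502b, bta-miR-532 and bta-miR-660. miR-501 was not analysed here.

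The EVs came from bovine granulosa cells, the somatic cells that surround the oocyte, taken from follicles of 3 to 6 mm of slaughterhouse ovaries and grown for 24 h at 37 °C in DMEM/F-12 with exosome-depleted fetal bovine serum. One group of cultures then stayed at 37 °C for a further 24 h (control-EVs) and the other was exposed to 42 °C for 24 h (HS-EVs, from heat stress). EVs of the spent medium were precipitated with ExoQuick-TC, and their small RNA was sequenced with unique molecular identifiers in 3 libraries per group, described as biological replicates. The cells are a primary culture with no genetic change, the sources do not say how many animals stand behind a replicate, and miRNA carried over from the serum was not tested.

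The deposited values are normalized read counts. Within each library they were whole multiples of 1 step, which was taken as 1 read. In every library the total so recovered exceeded the number of reads that the study gives as mapped to annotated miRNAs, for a reason that was not tested. A step may therefore not equal 1 independent read, and the counting intervals may be too narrow. The libraries held 274434 to 2360980 reads, of which bta-miR-1246 took 59.9% to 98.6%, leaving 34141 to 235634 reads for all other miRNAs. HS-EVs replicate 1 stood apart, with both the most reads and the fewest reads outside bta-miR-1246. The normalization raised its values relative to its total, so that 1 read was worth 4.11 normalized counts there and 0.697 to 1.98 in the other libraries. Where 3 values are given for a group, they stand in the order of its replicates 1 to 3. The number of reads limits the precision of each value below, and intervals cover counting error only.

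RefSeq places, on the ARS-UCD2.0 assembly, 8 miRNA genes within the span of CLCN5, and all 8 belong to this cluster. Along the chromosome they are MIR532, MIR188, MIR502A-2, MIR502B, MIR362, MIR500, MIR660 and MIR502A-1. The authors mapped to another assembly (UMD3.1), so no positions are given, and their placement in introns was not checked here. bta-miR-502a has 2 of these genes, whose products the values do not tell apart. MIR362 is the only one represented by both arms. The mature miRNAs of this cluster resemble each other, and the counting could have divided reads between them, in particular between bta-miR-502a and bta-miR-502b.

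In the EV libraries, the reads of the cluster were almost entirely of bta-miR-660 and bta-miR-532. Their genes lie at opposite ends of the row, apart from the second copy of bta-miR-502a. Over the 6 libraries, 2224 of the 2278 cluster reads (97.6%, exact 95% interval 96.9% to 98.2%) were of these members, 1381 of bta-miR-660 and 843 of bta-miR-532. The other 6 members together had 54 reads (2.37%, exact 95% interval 1.79% to 3.08%). Taking as detected a miRNA that reached 10 normalized counts in at least 2 of the 3 libraries, bta-miR-660 and bta-miR-532 were detected in either group, and the remaining 6 members in neither.

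**Figure D1:**
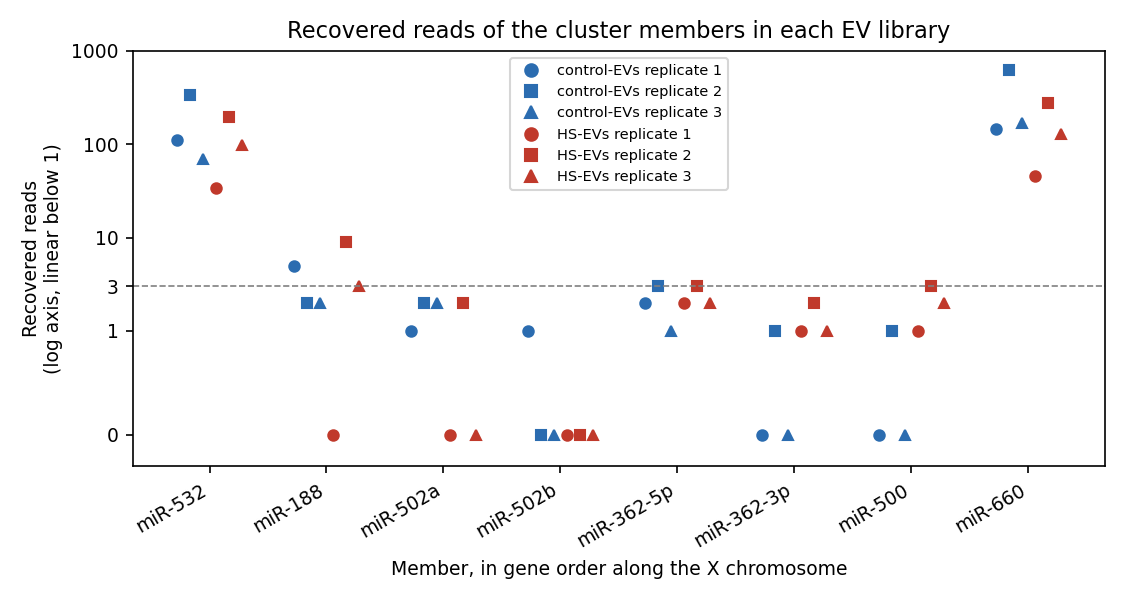
Recovered reads (y axis, logarithmic above 1 and linear below) of the 8 members in gene order along the X chromosome (x axis), with bta-miR-502a placed at the first of its 2 genes. Each point is 1 library, and the dashed line marks 3 reads. bta-miR-532 and bta-miR-660 had at least 34 reads in every library, while the other members had at most 9.

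bta-miR-660, a miRNA studied in tumours as a repressor of the p53 regulator MDM2, was the most abundant member. Its reads numbered 147, 616 and 170 in control-EVs against 46, 275 and 127 in HS-EVs. Its normalized counts were 270, 430 and 336 in control-EVs and 189, 302 and 207 in HS-EVs. HS-EVs replicates 1 and 3 lay below every control-EVs library, but HS-EVs replicate 2 lay above control-EVs replicate 1, so the groups overlapped. The libraries averaged 345 ± 80.3 (SD, n = 3) for control-EVs and 233 ± 61.0 (SD, n = 3) for HS-EVs. On the log2(normalized count + 1) scale, its fold change (HS-EVs minus control-EVs) was -0.57 with a standard error of 0.45 and a 95% interval of -1.58 to 0.44 (adjusted p = 0.873 from limma over all 512 miRNAs). The difference did not pass the test. bta-miR-660 ranked 61 among the 512 miRNAs by mean normalized count.

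bta-miR-532, reported in other work as a repressor of the transcription factor RUNX3, was the next in level. It had 112, 337 and 69 reads in control-EVs against 34, 194 and 97 in HS-EVs. In normalized counts these were 206, 235 and 136 in control-EVs and 140, 213 and 158 in HS-EVs. The 3 HS-EVs libraries all fell within the range of the control-EVs libraries. The libraries averaged 192 ± 50.6 (SD, n = 3) for control-EVs and 170 ± 38.4 (SD, n = 3) for HS-EVs. Its log2 fold change was -0.16 with a standard error of 0.45 and a 95% interval of -1.17 to 0.85 (adjusted p = 0.952 from limma). The interval included a fall of 1, the size of the fold change threshold, but not a rise of 1. It ranked 74.

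The order of these members was the same in every library, since bta-miR-660 had more reads than bta-miR-532 in 6 of 6. The ratio of their reads, which no scaling of the libraries can change, was 1.31, 1.83 and 2.46 in control-EVs against 1.35, 1.42 and 1.31 in HS-EVs. The HS-EVs libraries lay close together, and control-EVs replicate 1 lay among them. bta-miR-660 accordingly took 54.7% to 56.4% of the cluster reads in HS-EVs and 54.9% to 69.7% in control-EVs. Both were far from the remaining members, whose highest value in any library was 9.90 normalized counts against a lowest value of 136 for bta-miR-532.

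bta-miR-500, the miRNA against which the cluster was compared, was among the least abundant. Its reads numbered 0, 1 and 0 in control-EVs against 1, 3 and 2 in HS-EVs. As deposited, these were 0, 0.697 and 0 normalized counts in control-EVs and 4.11, 3.30 and 3.26 in HS-EVs. In normalized counts every HS-EVs library exceeded every control-EVs library, whereas in reads HS-EVs replicate 1 and control-EVs replicate 2 both had 1. The single read of HS-EVs replicate 1 became the highest of the 6 values, and that of control-EVs replicate 2 counted for 5.89 times less. The libraries averaged 0.232 ± 0.403 (SD, n = 3) for control-EVs and 3.56 ± 0.479 (SD, n = 3) for HS-EVs. No fold change is given, since no library had more than 3 reads, which is the limit that a count of 0 allows.

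In limma's test bta-miR-500 had an unadjusted p of 0.00159, the second smallest of the 512, and an adjusted p of 0.408, which missed the threshold of 0.3. It was past the threshold (adjusted p = 0.0419 from limma) without control-EVs replicate 2, the only control library with a read of it, and its adjusted p ranged from 0.0419 to 0.995 over the 14 alternatives that kept it (a filter on low values removed it). On the recovered reads, edgeR's quasi-likelihood test gave an unadjusted p of 0.0597 and DESeq2 one of 0.152, and with the libraries scaled by all reads limma gave 0.194. bta-miR-500 is on a supplementary list of miRNAs by unadjusted p-value that the study drew up from these same libraries, so its difference is not independent evidence. It is not among the EV miRNAs that the text of the study names. Of the 512 miRNAs, 214 likewise had at most 3 reads in every library, and 9 of these 214 had an unadjusted p of 0.05 or less.

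**Figure D2:**
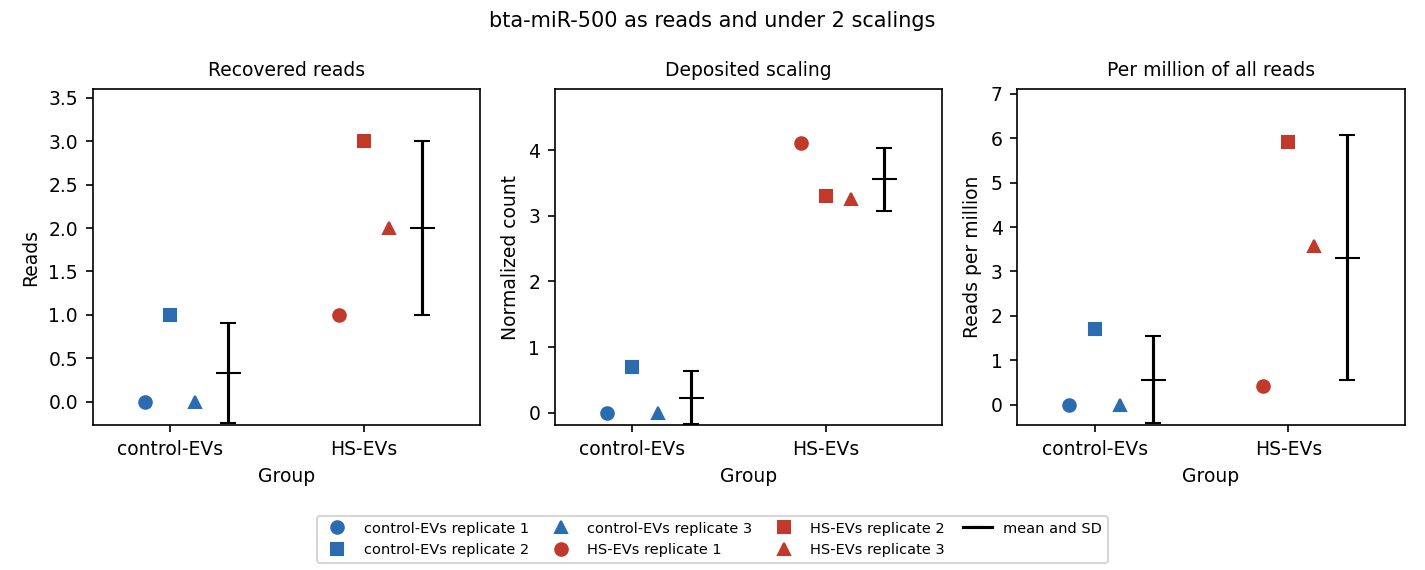
bta-miR-500 in each library as recovered reads (left), normalized counts as deposited (middle) and RPM (reads per 1000000) of all reads (right), by group on the x axis, with the mean and SD over 3 libraries beside the points. The groups are apart in the middle panel only. HS-EVs replicate 1 is the highest library there at 4.11, and falls to 0.424 RPM of all reads, below the 1.70 of control-EVs replicate 2.

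Whether the groups of bta-miR-500 overlapped depended on the scaling. In RPM, reads per 1000000 of a stated total, taken of the reads other than bta-miR-1246, its levels were 0, 4.24 and 0 in control-EVs and 29.3, 24.3 and 23.1 in HS-EVs, without overlap. In RPM of all reads they were 0, 1.70 and 0 in control-EVs and 0.424, 5.92 and 3.58 in HS-EVs, with overlap. Summed over each group, bta-miR-500 had 1 read among 1360667 in control-EVs and 6 among 3425716 in HS-EVs, or 0.735 (exact Poisson 95% interval 0.0186 to 4.09) and 1.75 (0.643 to 3.81) RPM. HS-EVs replicate 1 supplied 2360980 of those reads but 1 of the 6 of bta-miR-500, and without it, an alternative chosen after seeing the data, HS-EVs had 5 among 1064736, or 4.70 (1.52 to 11.0) RPM. The intervals overlapped with and without it. Against the 385826 and 244294 reads other than bta-miR-1246, the same reads made 2.59 (0.0656 to 14.4) and 24.6 (9.01 to 53.5) RPM, and these intervals overlapped as well. Such overlap does not show that the rates were alike, and the difference of the summed rates was not tested. The intervals also leave out the differences between libraries of a group.

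MIR362, the gene beside MIR500, gave both of its arms, and miR-362 has been described, like miR-500, as a repressor of the deubiquitinase CYLD. The 5p arm had 2, 3 and 1 reads in control-EVs against 2, 3 and 2 in HS-EVs. The 3p arm had 0, 1 and 0 reads in control-EVs and 1, 2 and 1 in HS-EVs. The 5p arm was thus above the 3p arm in 6 of 6 libraries, by 13 reads against 5 in all.

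In normalized counts, bta-miR-362-3p was 0, 0.697 and 0 in control-EVs and 4.11, 2.20 and 1.63 in HS-EVs, groups that did not overlap. In reads they did, with 1 read in control-EVs replicate 2 and in HS-EVs replicates 1 and 3. Its unadjusted p was 0.00904 and its adjusted p 0.626 from limma, and with the libraries scaled by all reads its unadjusted p was 0.349. bta-miR-362-5p was at 3.67, 2.09 and 1.98 normalized counts in control-EVs and 8.22, 3.30 and 3.26 in HS-EVs, with overlap (adjusted p = 0.873 from limma). The 8.22 rests on 2 reads of HS-EVs replicate 1, as many as the 3.67 of control-EVs replicate 1.

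bta-miR-188, known from bone marrow as a regulator of the choice between bone and fat cell fates, was the most abundant of the rare members, with 21 reads in all. It had 5, 2 and 2 reads in control-EVs against 0, 9 and 3 in HS-EVs. HS-EVs replicates 1 and 2 thus held both the lowest and the highest value. It averaged 4.84 ± 3.97 normalized counts (SD, n = 3) for control-EVs and 4.93 ± 4.95 (SD, n = 3) for HS-EVs. The log2 fold change was -0.30 with a standard error of 0.87 (adjusted p = 0.952 from limma), opposite in sign to the difference of the means. The sign turned to 0.70 without HS-EVs replicate 1, where it had no read.

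The miR-502 miRNAs, whose human relative is known for a polymorphic target site in the histone methyltransferase SET8, were at the limit of detection. bta-miR-502a had 1, 2 and 2 reads in control-EVs against 0, 2 and 0 in HS-EVs. It was the only member apart from bta-miR-502b with fewer reads in HS-EVs among the rare ones, at 2.39 ± 1.37 normalized counts (SD, n = 3) for control-EVs and 0.733 ± 1.27 (SD, n = 3) for HS-EVs (adjusted p = 0.873 from limma). The groups overlapped through HS-EVs replicate 2. bta-miR-502b had 1 read in control-EVs replicate 1 and none elsewhere. Of the 36 values of the 6 rare members, 12 were 0, with 6 zeros in each group, and only 2, both of bta-miR-188, exceeded 3 reads.

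The fitted differences of the members did not all have the sign of that of bta-miR-500. By the sign of the fitted fold change, 3 of the 8 were higher in HS-EVs (bta-miR-500, bta-miR-362-3p and bta-miR-362-5p) and 5 were lower, beside 50.0% of all 512 miRNAs that were higher. The number higher was 4 in edgeR and DESeq2, where bta-miR-188 turned, and 2 with the libraries scaled by all reads, a scaling that lowered miRNAs in general and left 20.9% of the 512 higher. The threshold of an adjusted p of 0.3 or less and a log2 fold change of at least 1 in either direction was passed by 0 of the 8 members and by 0 of the 512 miRNAs (0%) in limma. On recovered reads, edgeR's quasi-likelihood test called 3 of the 512 and DESeq2 called 0, with 0 members in both, and at an unadjusted p of 0.05 or less they gave 26 and 10 of the 512, again with 0 members. At an unadjusted p of 0.05 or less, limma gave 2 of the 8 members, bta-miR-500 and bta-miR-362-3p, both higher, beside 4.88% of all miRNAs. That number was 1 of the 8 and 25 of the 512 with a trend of the variance on the mean, and 0 and 17, all lower, with the libraries scaled by all reads. It was 4 of the 8 and 30 of the 512 without HS-EVs replicate 2, with bta-miR-502a and bta-miR-660 lower in HS-EVs as the added members. In all libraries, bta-miR-500 and bta-miR-362-3p were also the 2 members whose groups did not overlap in normalized counts, beside 6.45% of all miRNAs (3.71% higher and 2.73% lower in HS-EVs). In recovered reads, which compare libraries of unequal depth, the groups overlapped for all 8. The share over all 512 miRNAs was not counted for reads, so nothing about the members is read from this. The median log2 fold change of the members was -0.23 and that of all 512 miRNAs 0.01.

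**Figure D3:**
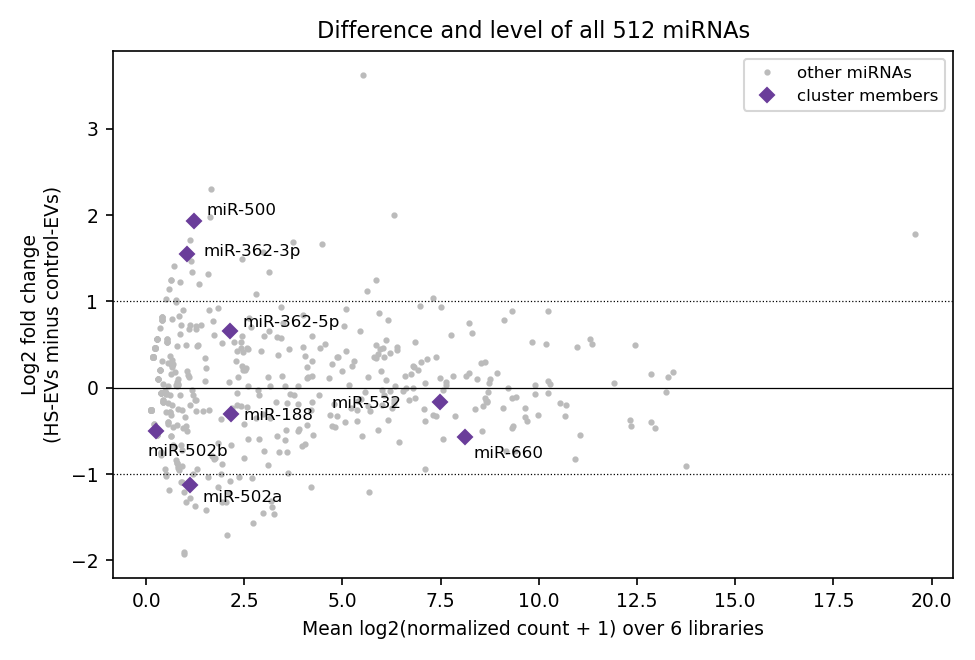
Log2 fold change between HS-EVs and control-EVs (y axis) against the mean log2(normalized count + 1) over the 6 libraries (x axis) for all 512 miRNAs, with the 8 members as diamonds and dotted lines at a fold change of 1 in either direction. The abundant members bta-miR-532 and bta-miR-660 lie at -0.16 and -0.57, while the members higher in HS-EVs lie at the low end, where their fitted values rest on at most 3 reads per library.

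Pooling the reads gave the cluster as a whole enough depth for a comparison, although the pool mostly measures bta-miR-660 and bta-miR-532. The 8 members summed to 268, 962 and 244 reads in control-EVs against 84, 488 and 232 in HS-EVs. The summed normalized counts were 492, 671 and 482 in control-EVs and 345, 537 and 378 in HS-EVs. HS-EVs replicates 1 and 3 lay below every control-EVs library, and HS-EVs replicate 2 lay between control-EVs replicates 1 and 2. The libraries averaged 548 ± 106 (SD, n = 3) for control-EVs and 420 ± 102 (SD, n = 3) for HS-EVs. On the log2 scale the pooled level differed by -0.39 (standard error 0.25), and by -0.41 (standard error 0.25) with bta-miR-500 left out. The pool thus differed in the direction opposite to bta-miR-500, with overlapping groups. It carries no test, since the members were chosen together.

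**Figure D4:**
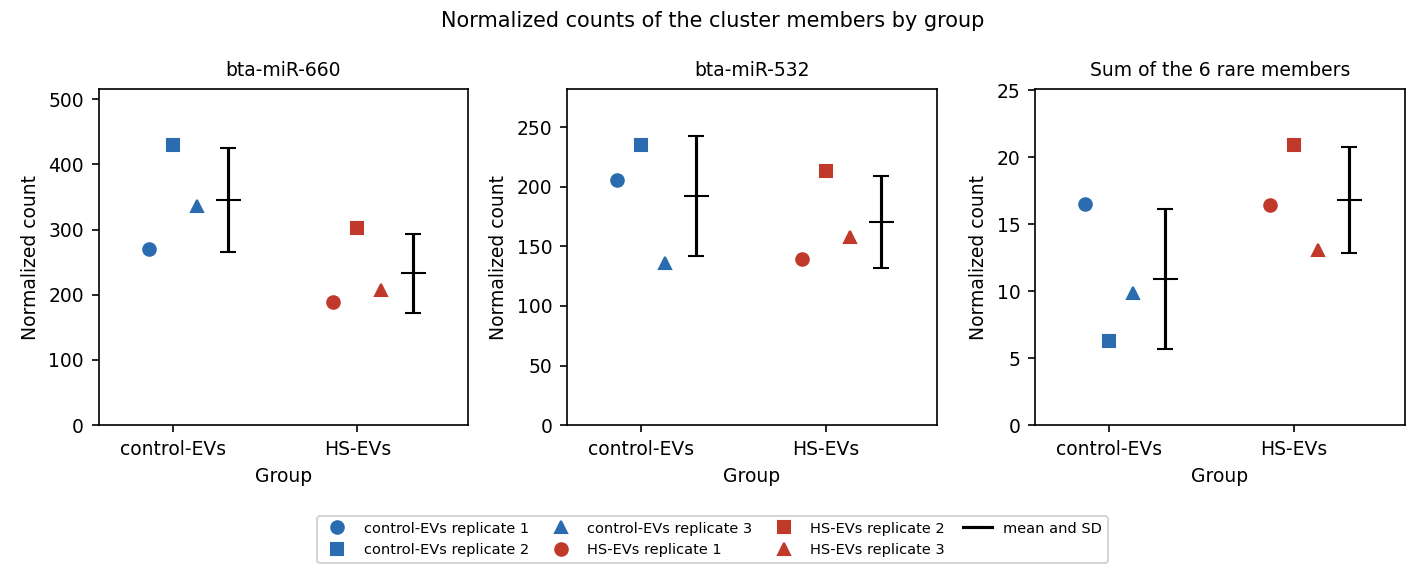
Normalized counts (y axis) of bta-miR-660, of bta-miR-532 and of the sum of the 6 rare members, by group (x axis), with 1 point per library and the mean and SD over 3 libraries beside the points. The HS-EVs libraries extend lower than the control-EVs libraries for bta-miR-660 (189 to 302 against 270 to 430) and lie within them for bta-miR-532, while the rare members sum to 13.0 to 20.9 in HS-EVs and 6.28 to 16.5 in control-EVs.

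The share of the pool depended on what it was set against. Of the reads other than bta-miR-1246, the cluster took 0.350% (95% Wilson interval 0.310% to 0.394%), 0.408% (0.383% to 0.435%) and 0.332% (0.293% to 0.376%) in control-EVs replicates 1 to 3. In HS-EVs replicates 1 to 3 it took 0.246% (0.199% to 0.304%), 0.395% (0.362% to 0.432%) and 0.268% (0.235% to 0.304%). HS-EVs replicate 2 was close to control-EVs replicate 2, the library with the highest share. Of all reads, the cluster took 0.0538%, 0.164% and 0.0889% in control-EVs and 0.00356%, 0.0963% and 0.0416% in HS-EVs. The value of HS-EVs replicate 1 was the lowest by far, in the library where bta-miR-1246 took 98.6% of the reads. With this scaling the pooled level differed by -1.91 (standard error 1.49) on the log2 scale, while the median of all 512 miRNAs shifted to -0.79. bta-miR-660 was then at -2.08 (standard error 1.13, 95% interval -4.40 to 0.23). bta-miR-532 was at -1.66 (standard error 1.12, 95% interval -3.96 to 0.63). That median includes the many rare miRNAs whose differences the pseudocount shrinks, so no comparison with it is drawn.

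**Figure D5:**
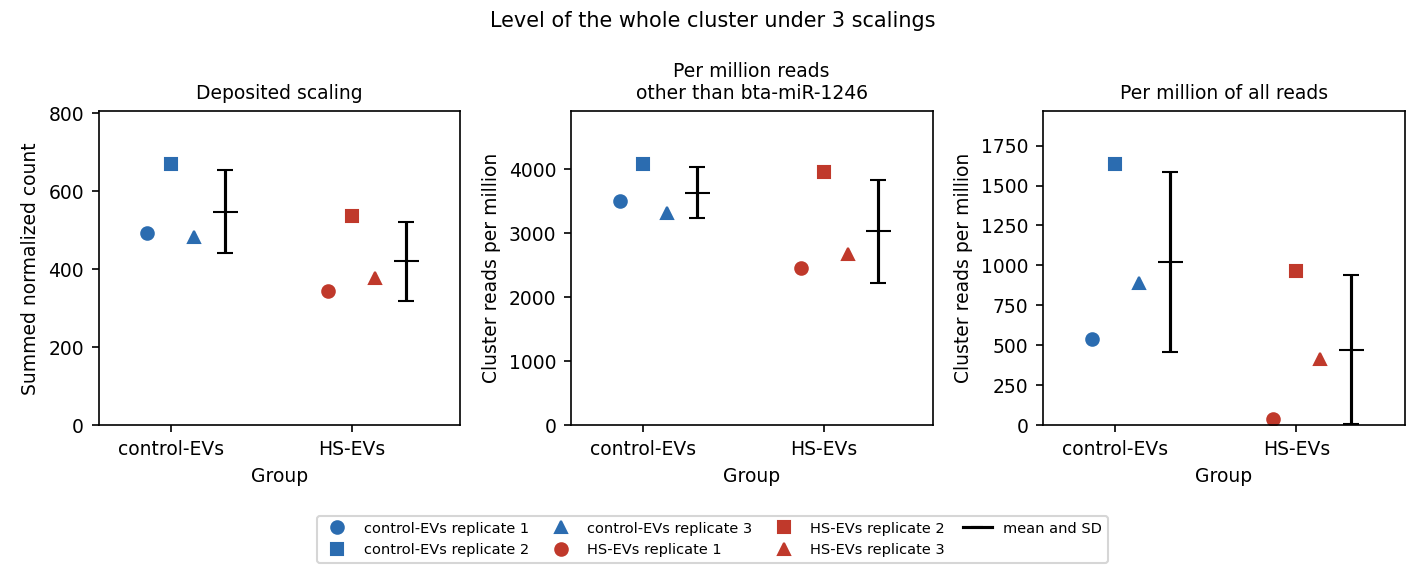
Level of the whole cluster by group (x axis) as summed normalized counts (left), RPM of the reads other than bta-miR-1246 (middle) and RPM of all reads (right), with 1 point per library and the mean and SD over 3 libraries beside the points. The groups overlap in each panel, and HS-EVs replicate 1 falls to 35.6 RPM of all reads, where the other libraries are at 416 to 1636.

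The 6 rare members, pooled on their own, had a difference of the opposite sign to that of the whole cluster, with overlapping groups. They summed to 9, 9 and 5 reads in control-EVs against 4, 19 and 8 in HS-EVs. Their summed normalized counts were 16.5, 6.28 and 9.88 in control-EVs and 16.4, 20.9 and 13.0 in HS-EVs. The groups overlapped through control-EVs replicate 1. The pooled level differed by 0.65 (standard error 0.41) on the log2 scale, by 0.36 (standard error 0.47) without bta-miR-500. The alternatives that follow were chosen after seeing the data. Scaled by all reads, which took the median of all 512 miRNAs to -0.79, it was -0.64 with and -0.87 without bta-miR-500, and nothing about these members is read from that sign. Without control-EVs replicate 2 it was 0.34 with and 0.0073 without bta-miR-500, without HS-EVs replicate 2 it was 0.15 without bta-miR-500, and without control-EVs replicate 1 it was 0.98 with and 0.71 without it. Without HS-EVs replicate 3 it was 0.55 without bta-miR-500. Without bta-miR-500 the reads numbered 9, 8 and 5 in control-EVs and 3, 16 and 6 in HS-EVs. Of the 25 HS-EVs reads, 16 came from replicate 2.

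The make-up of the cluster is free of the scaling, since all its reads come from the same library. The rare members took 3.36%, 0.936% and 2.05% of the cluster reads in control-EVs against 4.76%, 3.89% and 3.45% in HS-EVs, so that each HS-EVs library lay above each control-EVs library. The gap between control-EVs replicate 1 (exact 95% interval 1.55% to 6.28%) and HS-EVs replicate 3 (1.50% to 6.68%) was much smaller than their counting error. Without bta-miR-500 the shares were 3.36%, 0.832% and 2.05% in control-EVs and 3.57%, 3.28% and 2.59% in HS-EVs, and the groups overlapped. bta-miR-500 itself was 0 of 268 cluster reads in control-EVs replicate 1, which allows a share of up to 1.12%, 1 of 962 (0.104%) in replicate 2, and 0 of 244 in replicate 3, which allows up to 1.23%. In HS-EVs it was 1 of 84 (1.19%), 3 of 488 (0.615%) and 2 of 232 (0.862%). Summed over each group, it was 1 of 1474 (0.0678%, exact 95% interval 0.00172% to 0.377%) in control-EVs and 6 of 804 (0.746%, 0.274% to 1.62%) in HS-EVs, with overlapping intervals. The limits of the control-EVs libraries without a read of it were close to the highest HS-EVs share, and the share of control-EVs replicate 2 (exact 95% interval 0.00263% to 0.578%) lay below that of each HS-EVs library. Overlap of intervals does not show that the shares were alike, and their difference was not tested.

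Among the 128 miRNAs outside the cluster with at least 10 reads in every library, bta-miR-361 followed the pooled cluster most closely. It is another X-linked intronic miRNA, known from an intron of CHM. Its normalized counts were 652, 984 and 662 in control-EVs against 481, 716 and 492 in HS-EVs. The study took it as the reference of its droplet digital PCR, calling it the most stable miRNA with and without heat stress. Its ratio to the cluster was 1.32, 1.47 and 1.37 in control-EVs and 1.39, 1.33 and 1.30 in HS-EVs. Set against this reference, the lower pooled level of HS-EVs was not seen. bta-miR-361 stood at 1.30 to 1.47 times the cluster in all 6 libraries, and the SD of this log2 ratio was 0.06. The next were bta-miR-92a, of the miR-17 to miR-92 family of clusters (SD 0.14, 9.44 to 12.1 times the cluster), and bta-miR-93, from an intron of MCM7 (SD 0.16, 2.94 to 3.93 times). The median SD over the 128 was 0.52. The log2 ratio of bta-miR-532 to bta-miR-660 had an SD of 0.37. It sets 1 single member against another and not against a sum, so it is not comparable with the values above. These are descriptions over 6 libraries, and the points share the library's depth.

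The other miRNAs that the annotation places on the X chromosome alone numbered 42. None of the 42 passed the threshold in limma (0 called). At an unadjusted p of 0.05 or less, 3 were higher and 1 was lower in HS-EVs. Over all 512 miRNAs these numbers were 14 and 11 (2.73% and 2.15%). Of these 42, 24 had a fitted fold change above 0, beside 50.0% of all 512. Their median log2 fold change was 0.12, beside 0.01 for all 512 and -0.23 for the 8 members of the cluster.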

How the data were processed

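Small RNA of EVs was measured in 6 libraries, 3 control-EVs and 3 HS-EVs, grouped by their labels. Per the labels and the methods, the authors trimmed reads with cutadapt (1.11), collapsed reads of the same UMI, mapped them with Bowtie2 (2.2.2) to the bovine genome (UMD3.1) and to miRBase, and normalized by TMM in edgeR. The deposited value is a normalized read count, handled as a signal that is never negative. Dividing each library by its smallest value above 0 gave whole numbers for 100% of the values, within a tolerance of 0.001, and these were taken as reads.

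limma (3.58.1, R 4.3.3, default settings, no block) was fitted to log2(normalized count + 1) of all 512 miRNAs without a filter, with Benjamini-Hochberg adjustment, and was tested on simulated data. A pseudocount of 1 understates changes of rare miRNAs. Alternatives were pseudocounts of 0.5 and 5, a filter, a replicate block, limma's trend, 2 scalings, edgeR (4.0.16), DESeq2 (1.42.0) and leaving out each library. Scalings by reads were brought to the geometric mean worth of a read in the deposited values. Libraries differed beyond sampling noise in all 15 pairs. Named miRNAs are the members, bta-miR-1246 and the 3 whose log2 ratio to the summed cluster varied least. Of the 512 identifiers, 502 matched the ARS-UCD2.0 gene table. Mature sequences and seeds were not used here. The members, lists and tests were chosen with earlier results of these data known.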

Additional observations from a re-analysis of the deposited data

How the results depend on the processing

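No member passed the threshold under 14 of the 15 alternatives. Without control-EVs replicate 2, bta-miR-500 passed it, so the number of members called ranged from 0 to 1 with each library left out. Over all 512 miRNAs the number called was 1 with a pseudocount of 0.5, 2 with limma's trend, 3 in edgeR's quasi-likelihood test and 0 to 4 with each library left out (4 without control-EVs replicate 2, 3 without HS-EVs replicate 2 and 2 without HS-EVs replicate 1), against 0. The number of members higher in HS-EVs was 3, 3 to 4 with each library left out, and 0 of the 2 that a filter on low values kept. The pooled log2 difference was -1.91 (-1.93 without bta-miR-500) when scaled by all reads, with a standard error of 1.49 in either case. With each library left out it ranged from -0.58 without HS-EVs replicate 2 to -0.24 without control-EVs replicate 2 (-0.60 to -0.25 without bta-miR-500). The sign of bta-miR-188 turned in edgeR (0.62) and DESeq2 (0.23), and lay between -1.03 and 0.70 with each library left out. That of bta-miR-532 lay between -0.39 and 0.0020, and that of bta-miR-362-5p turned from 0.66 to -0.43 when scaled by all reads. Both values of bta-miR-362-5p are fitted from at most 3 reads a library and are no estimate of a fold change. Chosen after seeing the data, the pooled difference of the 6 rare members turned from 0.65 to -0.64 (without bta-miR-500, from 0.36 to -0.87) when scaled by all reads, which also took the median of all 512 miRNAs from 0.01 to -0.79. Nothing about these members is read from that sign. The causes were not tested.

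With the replicate number as a block, 0 miRNAs were called and bta-miR-500 had an adjusted p of 0.505 from limma. Deviations of same-numbered libraries correlated by 0.14, 0.14 and 0.08, and each library correlated best with its own number, which is a hint from the data and not from the design. Replicate 2 had the most reads other than bta-miR-1246 in either group (235634 in control-EVs and 123448 in HS-EVs). Whether the correlations follow depth was not tested. Of the members, depth supports a comparison for bta-miR-532 and bta-miR-660 alone.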
